A study of Mus musculus with 12 samples.

Results

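Oxidative phosphorylation is carried out by 5 protein complexes of the inner mitochondrial membrane, and the genes described here are those whose only symbol in the array annotation starts with Nduf, Sdha to Sdhd, Uqcr, Cox4 to Cox8 or Atp5. The rule found 93 genes of the 22180 with a single symbol, measured by 103 probe sets, and each gene was represented by its probe set with the highest mean. Of the 93, 77 encode nuclear subunits: 32 of complex I, 4 of complex II, 7 of complex III, 17 of complex IV, with Ndufa4 counted there, and 17 of complex V. The prefixes also take in 12 assembly factors (Ndufaf1 to Ndufaf8 and Sdhaf1 to Sdhaf4), which help to build complexes I and II but are not part of them. The other 4 genes are Cox7a2l, a factor of supercomplexes, Ndufa4l2, a relative of Ndufa4, and the pseudogenes Atp5c1-ps and Uqcrh-ps1. Only the 77 subunits match the name oxidative phosphorylation subunits, so assembly factors are given apart throughout.

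Expression was measured on whole-transcript arrays in liver of male C57BL/6 mice, with an array for each mouse and 3 mice per group. The groups were AHNAK KO mice on a high-fat diet (HFD, 60% fat), WT mice on HFD, AHNAK KO mice on chow and WT mice on chow, with each diet given for 8 weeks to weight-matched groups. The series compared the genotypes within each diet. The labels do not describe how the AHNAK allele was made. In bulk tissue, fewer cells of a type and less RNA per cell cannot be told apart.

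Complexes I to IV pass electrons from NADH and succinate to oxygen, and complexes I, III and IV pump protons out of the matrix while they do so. Complex V, the ATP synthase, lets the protons flow back and makes ATP. Complex II is also the succinate dehydrogenase of the tricarboxylic acid cycle, and all of its subunits come from nuclear genes, while the other complexes are mosaics of nuclear and mitochondrial gene products. Hepatocytes are rich in mitochondria and use this machinery to burn fatty acids and to supply ATP for gluconeogenesis and urea synthesis.

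Log2 signals ran from 1.40 to 14.36 on the 12 arrays, with array medians between 5.58 and 5.70, and precision is limited by having 3 arrays per group. The 6 hepatocyte markers had a summed log2 signal of 16.29 to 16.35 in KO HFD, 16.28 to 16.29 in WT HFD, 16.35 to 16.38 in KO chow and 16.30 to 16.31 in WT chow livers. Of these 6, Cps1, the entry enzyme of the urea cycle, rose by 0.36 ± 0.07 in KO against WT livers on HFD (adjusted p = 0.00882). The probe set of Ahnak gave 6.46, 6.52 and 6.62 in KO HFD livers and 7.26, 7.06 and 6.74 in WT HFD livers, a difference of -0.48 ± 0.14 (± SE, as for all differences here) with a limma adjusted p = 0.0483. Leaving out any array except WT HFD 3, KO chow 1 or WT chow 2 ended that call, with an adjusted p as high as 0.173, and it passed under 4 of 8 other settings. On chow it gave 6.38, 6.74 and 6.66 in KO and 6.50, 6.83 and 6.58 in WT livers, a difference of -0.04 ± 0.14 (adjusted p = 0.971). The labels do not give the deleted part of the gene, so this probe set does not check them.

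The promoters of the members on which the results turn are shown first, since these 5 genes include 4 of those that fell in KO HFD livers and the partner subunit of Sdha. They are RefSeq windows of assembly GRCm38.p6, from 250 bases before to 50 after the annotated start, 5′ to 3′ on the gene's strand. Capitals mark a match to the motif of nuclear respiratory factor 1 (NRF1), which reads GCGC, any base, then TGCGC, or to CCGGAAG (ETS family, as of GABPA), read on both strands. Cox7a1 (chr7:30183921-30184220, plus strand) encodes a muscle-type subunit of complex IV. Sdha (chr13:74350191-74350490, minus strand) and Sdhb (chr4:140961021-140961320, plus strand) encode the flavoprotein and the iron-sulfur subunit of complex II. Sdhaf4 (chr1:24005591-24005890, minus strand) and Ndufaf7 (chr17:78936885-78937184, plus strand) encode assembly factors of complexes II and I.
Cox7a1: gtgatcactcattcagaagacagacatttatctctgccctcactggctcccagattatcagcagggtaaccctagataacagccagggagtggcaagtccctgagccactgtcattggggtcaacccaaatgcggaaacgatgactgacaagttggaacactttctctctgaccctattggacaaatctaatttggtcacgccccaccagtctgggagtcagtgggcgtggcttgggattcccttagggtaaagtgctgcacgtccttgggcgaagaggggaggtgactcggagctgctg
Sdha: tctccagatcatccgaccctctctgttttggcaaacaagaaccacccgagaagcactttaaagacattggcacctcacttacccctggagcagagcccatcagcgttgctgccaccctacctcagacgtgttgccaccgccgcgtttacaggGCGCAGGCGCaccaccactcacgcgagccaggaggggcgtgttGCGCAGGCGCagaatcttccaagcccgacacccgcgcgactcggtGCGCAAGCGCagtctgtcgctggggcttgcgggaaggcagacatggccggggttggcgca
Sdhb: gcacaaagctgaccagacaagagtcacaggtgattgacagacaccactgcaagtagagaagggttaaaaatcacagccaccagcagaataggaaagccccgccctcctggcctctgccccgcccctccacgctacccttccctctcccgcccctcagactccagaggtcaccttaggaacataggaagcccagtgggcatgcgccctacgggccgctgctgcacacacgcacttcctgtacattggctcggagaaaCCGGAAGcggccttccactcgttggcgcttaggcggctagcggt
Sdhaf4: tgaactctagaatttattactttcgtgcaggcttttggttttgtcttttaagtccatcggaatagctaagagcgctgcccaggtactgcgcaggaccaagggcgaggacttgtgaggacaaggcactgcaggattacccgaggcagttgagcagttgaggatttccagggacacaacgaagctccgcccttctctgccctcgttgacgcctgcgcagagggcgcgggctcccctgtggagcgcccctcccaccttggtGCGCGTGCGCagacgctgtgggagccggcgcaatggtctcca
Ndufaf7: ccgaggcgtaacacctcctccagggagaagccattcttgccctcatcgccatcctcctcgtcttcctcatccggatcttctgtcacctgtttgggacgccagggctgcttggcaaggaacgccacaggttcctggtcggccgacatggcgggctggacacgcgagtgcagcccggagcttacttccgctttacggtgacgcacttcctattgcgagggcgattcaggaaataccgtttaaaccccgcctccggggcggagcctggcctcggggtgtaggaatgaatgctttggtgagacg

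The Sdha window held 3 matches to the NRF1 motif, the Sdhaf4 window 1, the Sdhb window 1 match to the ETS motif, and the Cox7a1 and Ndufaf7 windows 0 of either. The motif AAGATGGC (YY1) was searched in the same way and occurred in 0 of these 5 windows. A window was found for 76 of the 93 members and for none of the other 17, Ndufaf6 among them. The NRF1 motif occurred in 19 of the 76 members with a window (25%) and in 5.19% of all 27025 genes with a window. The ETS motif occurred in 22 members (28.9%) against 9.93% of all these genes, and the YY1 motif in 10 (13.2%) against 3.19%. At least 1 of the 3 motifs was present in 44 of the 76 members, 32 held none, and 5 held both the NRF1 and the ETS motif. A match describes the letters of a window, and binding was not measured.

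KO and WT livers on HFD differed in few members of the respiratory chain. Of the 77 subunits, 0 rose and 2 fell, Cox7a1 of complex IV and Sdha of complex II, and 3 of the 12 assembly factors fell, Ndufaf6, Ndufaf7 and Sdhaf4. Among all 93 members 5 passed limma's test at an adjusted p under 0.05 (5.38%), while 10.5% of all genes passed, 3.89% higher and 6.62% lower in KO. At an unadjusted p under 0.05 the count was 16 of 93, against 23.8% of all genes. With a trend and a robust prior in the same tool 2 rose and 8 fell, against 12.5% of all genes passing. The split over all genes was 862 higher and 1469 lower as deposited, and 545 higher and 1937 lower when each array was centred on its median, where 0 members rose and 9 fell. The median difference was -0.05 over the members and 0.0011 over all genes, and 33 members lay above 0 and 60 below (-0.11, with 21 above and 72 below, with median centring).

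The precision of the subunit values was high enough to bound most differences. The median SD within a group was 0.0915 for the subunits and 0.151 for all genes. On HFD 71 of the 77 subunits had a 95% interval of the KO minus WT difference that stayed within 0.5 of 0 on the log2 scale, and all 77 stayed within 1. All 3 KO HFD arrays lay below all 3 WT HFD arrays for 19 members, against 15.6% of all genes, and above them for 5 members, against 13.0% of all genes.

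**Figure D1:**
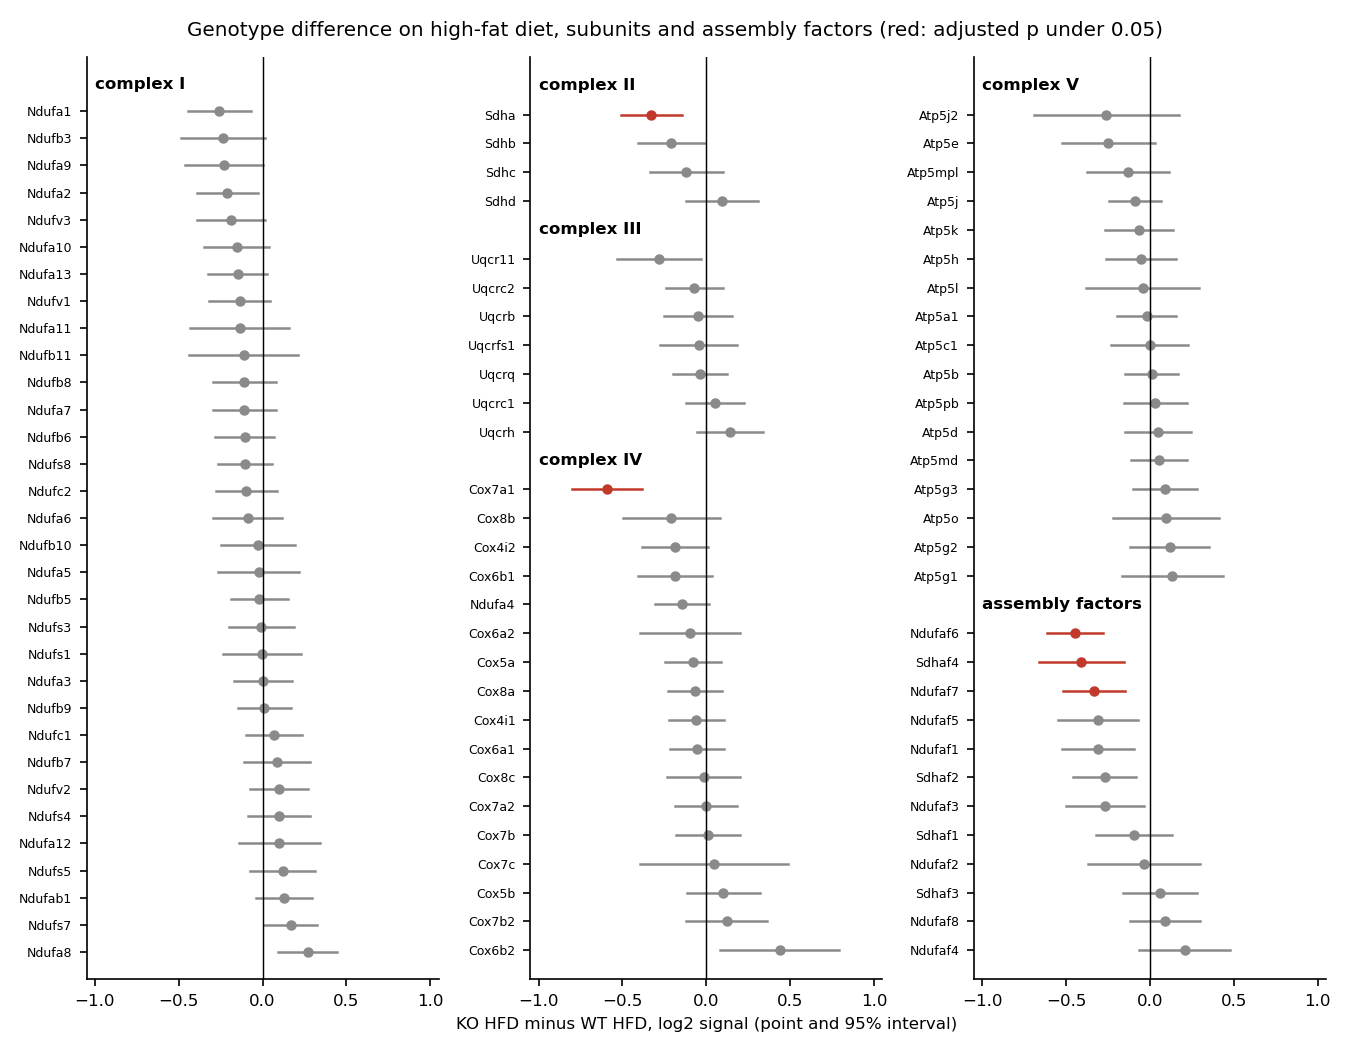
Each row is a subunit or assembly factor, placed by complex, and the horizontal axis is the KO HFD minus WT HFD difference in log2 signal, with the point at the estimate of the limma fit (n = 3 mice per group) and the bar at its 95% interval. The 5 red rows passed at an adjusted p under 0.05, and all of them lie left of 0.

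In complex I, the NADH dehydrogenase, 0 of 32 subunits passed on HFD, against 10.5% of all genes. At an unadjusted p under 0.05 limma counted 4 of the 32, against 23.8% of all genes. The median over complex I was -0.06, with differences from -0.26 to 0.27. Ndufa8, an accessory subunit, had 11.11, 11.24 and 11.15 in KO HFD livers, 10.82, 10.88 and 10.99 in WT HFD livers, 11.06, 11.03 and 11.07 in KO chow and 11.08, 10.94 and 10.94 in WT chow livers. The HFD arrays of the genotypes did not overlap, and the difference was 0.27 ± 0.08 (adjusted p = 0.0535). It passed under 3 of 8 other settings, with adjusted p between 0.012 and 0.36, and a second probe set of Ndufa8 gave 0.01 ± 0.10. Ndufa1, an accessory subunit of the membrane arm, had 8.65, 8.59 and 8.80 in KO HFD livers and 8.83, 9.05 and 8.94 in WT HFD livers. Its KO arrays were all lower, with a difference of -0.26 ± 0.09 (adjusted p = 0.0817). Ndufs7, a core subunit that carries the last iron-sulfur cluster before ubiquinone, had 12.90, 12.88 and 12.95 in KO HFD livers and 12.73, 12.74 and 12.76 in WT HFD livers. The arrays were again apart, with the KO arrays higher, and the difference was 0.17 ± 0.07 (adjusted p = 0.188). Ndufa2 differed by -0.21 ± 0.08 (adjusted p = 0.141).

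Complex II had the lowest median of the 5 complexes, -0.16 over its 4 subunits. Of the 4, 1 passed, where 10.5% of all genes passed and 6.62% fell. Sdha, which binds FAD and oxidises succinate, had 11.98, 12.22 and 12.10 in KO HFD livers, 12.44, 12.43 and 12.42 in WT HFD livers, 12.18, 12.27 and 12.26 in KO chow livers and 12.29, 12.23 and 12.15 in WT chow livers. The WT HFD livers were above all other arrays and lay within a narrow range, while 2 of the 3 KO HFD livers were below all chow arrays. Sdha fell by 0.33 ± 0.08 on the log2 scale in KO HFD livers (limma adjusted p = 0.0259). The call was lost when KO HFD 1, KO HFD 3 or any WT HFD array was left out, with adjusted p reaching 0.0775. It was also lost when only the HFD arrays were fitted (adjusted p = 0.0836) and when each probe set was tested separately (adjusted p = 0.0545).

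Sdhb, which passes the electrons on through iron-sulfur clusters, had 10.11, 10.30 and 10.19 in KO HFD livers, 10.43, 10.41 and 10.38 in WT HFD livers, 10.34, 10.53 and 10.41 in KO chow livers and 10.24, 10.27 and 10.03 in WT chow livers. Its KO arrays were all below the WT arrays on HFD and all above them on chow. The differences were -0.21 ± 0.09 (adjusted p = 0.19) on HFD and 0.24 ± 0.09 (adjusted p = 0.621) on chow, and the genotype by diet interaction was -0.45 ± 0.13 (adjusted p = 0.0843). The membrane anchors Sdhc and Sdhd, which hold the ubiquinone site, differed by -0.12 ± 0.10 (adjusted p = 0.533) and 0.10 ± 0.10 (adjusted p = 0.619) on HFD, and their arrays overlapped.

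In complex III, the cytochrome bc1 complex, 0 of 7 subunits passed on HFD, against 10.5% of all genes, with a median of -0.05. At an unadjusted p under 0.05 limma counted 1 of the 7, against 23.8% of all genes. The smallest p was that of Uqcr11, a small accessory subunit, with 8.97, 9.41 and 9.35 in KO HFD livers and 9.44, 9.66 and 9.47 in WT HFD livers. The KO arrays were all below the WT arrays, and the difference was -0.28 ± 0.12 (adjusted p = 0.153). Uqcrc1, a core protein, differed by 0.05 ± 0.08 (adjusted p = 0.761) and Uqcrb, a small subunit, by -0.05 ± 0.09 (adjusted p = 0.804).

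In complex IV, cytochrome c oxidase, 1 of 17 subunits fell on HFD, against 6.62% of all genes, and the median was -0.06. Cox7a1, the isoform typical of heart, skeletal muscle and brown fat, had 6.56, 6.60 and 6.65 in KO HFD livers, 7.20, 7.30 and 7.08 in WT HFD livers, 7.06, 6.96 and 7.23 in KO chow livers and 7.19, 7.04 and 7.01 in WT chow livers. The KO HFD livers were below all 9 other livers, and the other groups overlapped. Cox7a1 fell by 0.59 ± 0.10 on the log2 scale in KO HFD against WT HFD livers (adjusted p = 0.00206). It passed in this comparison when any of the 12 arrays was left out and under all 8 other settings, with adjusted p of at most 0.0124. Its partner isoform Cox7a2, the form found in liver, had 11.44, 11.61 and 11.51 in KO HFD livers and 11.51, 11.62 and 11.43 in WT HFD livers, a difference of -0.0007 ± 0.09 (adjusted p = 0.998).

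Markers of other cell types are given beside the Cox7a1 result. The lowest log2 signal of any probe set was 1.40, and whether each marker lay above background was not tested. Over all genes 3.89% rose and 6.62% fell in KO against WT livers on HFD, and 23.8% had an unadjusted p under 0.05 (limma). Of 9 striated muscle markers 0 passed on HFD (limma, 2 at an unadjusted p under 0.05), and their summed log2 signal was 8.86 to 9.01 in KO HFD and 8.88 to 8.92 in WT HFD livers. Of 6 adipocyte markers 1 fell, Cidea, and their sum, most of it from Elovl3, was 12.92 to 13.37 in KO HFD and 12.57 to 12.76 in WT HFD livers. Of these 6, 4 lay below 0 and 2 above, up to 0.52. Whether the signals of Cidea and Elovl3 came from adipocytes was not tested. Of 8 stellate cell and fibroblast markers 3 fell, Lrat, Col1a1 and Col3a1, with sums of 12.88 to 13.08 in KO HFD and 13.07 to 13.31 in WT HFD livers. Of 10 macrophage markers 3 fell, Mpeg1, Trem2 and Gpnmb, with sums of 12.69 to 13.06 in KO HFD and 12.98 to 13.30 in WT HFD livers. Of these 10, 9 lay below 0 and 1 above, at 0.11. Of 6 endothelial markers 2 fell, Cdh5 and Lyve1, with sums of 12.88 to 12.98 in KO HFD and 13.13 to 13.16 in WT HFD livers. The 6 did not move together, with 4 below 0 and 2 above, up to 0.33. For 1 endothelial marker all KO HFD arrays lay above all WT HFD arrays, and for 3 they lay below. Leaving out any HFD array ended the Lyve1 call, with an adjusted p up to 0.109, and it passed under 5 of 8 other settings. The part of these cell types in the values of Cox7a1 and the other members was not tested.

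The other tissue isoforms of complex IV did not pass on HFD. Cox6b2, known as a testis isoform, had 6.25, 6.19 and 6.26 in KO HFD livers and 5.61, 6.04 and 5.74 in WT HFD livers. The KO arrays were all above the WT arrays, and the difference was 0.44 ± 0.16 (adjusted p = 0.117). Cox4i2, known as a lung isoform, differed by -0.19 ± 0.09 (adjusted p = 0.242) and Cox8b, a heart and muscle isoform, by -0.21 ± 0.13 (adjusted p = 0.382). Cox6a2, Cox7b2 and Cox8c differed by -0.10, 0.12 and -0.02, and the widespread forms Cox4i1, Cox6a1, Cox6b1, Cox7b and Cox8a by -0.06, -0.06, -0.19, 0.01 and -0.07, with adjusted p between 0.3 and 0.961 for these 8. Ndufa4 differed by -0.15 ± 0.07 (adjusted p = 0.259) and Ndufa4l2, known to be induced by hypoxia, by -0.19 ± 0.10 (adjusted p = 0.269). Cox7a2l differed by 0.04 ± 0.12 (adjusted p = 0.889).

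In complex V 0 of 17 subunits passed on HFD, against 10.5% of all genes. At an unadjusted p under 0.05 limma counted 0 of the 17, against 23.8% of all genes. The median over complex V was -0.0022, with 8 above 0 and 9 below (-0.06, with 4 above and 13 below, with median centring). The catalytic beta subunit Atp5b had 13.53, 13.64 and 13.63 in KO HFD livers and 13.56, 13.59 and 13.62 in WT HFD livers, so the groups overlapped. Its difference was 0.0096 ± 0.07 (adjusted p = 0.96). Atp5g1, Atp5g2 and Atp5g3, which encode the same mature c subunit of the rotor with different import sequences, differed by 0.13 ± 0.14, 0.12 ± 0.11 and 0.09 ± 0.09. The lowest difference in the complex was that of Atp5j2, with -0.26 ± 0.20 (adjusted p = 0.476).

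Of the 12 assembly factors 3 fell in KO HFD livers, where 10.5% of all genes passed, and 7 had an unadjusted p under 0.05, against 23.8% of all genes. Their median was -0.27. All 3 KO arrays were below all 3 WT arrays for 6 of the 12, against 15.6% of all genes. Ndufaf6, which acts early in complex I assembly, had 7.13, 7.12 and 7.08 in KO HFD livers, 7.55, 7.59 and 7.53 in WT HFD livers, 7.26, 7.37 and 7.33 in KO chow livers and 7.30, 7.36 and 7.49 in WT chow livers. The KO HFD livers were below all other arrays and the WT HFD livers above all of them. Ndufaf6 fell by 0.45 ± 0.08 on the log2 scale (adjusted p = 0.00314), and it passed when any of the 12 arrays was left out and under all 8 other settings.

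Ndufaf7, a methyltransferase that modifies a core subunit of complex I, had 7.57, 7.62 and 7.63 in KO HFD livers, 7.95, 7.99 and 7.87 in WT HFD livers, 7.60, 7.78 and 7.56 in KO chow livers and 7.62, 7.53 and 7.45 in WT chow livers. The WT HFD livers were above all other arrays. Ndufaf7 fell by 0.33 ± 0.09 on the log2 scale (adjusted p = 0.0266). The call was lost without any KO HFD array, WT HFD 1 or WT HFD 2, with adjusted p reaching 0.0936. It was also lost with only the HFD arrays fitted (adjusted p = 0.0588) and with each probe set tested separately (adjusted p = 0.0568).

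Sdhaf4, which helps flavinated Sdha to join Sdhb, had 7.69, 7.76 and 7.92 in KO HFD livers, 8.06, 8.26 and 8.29 in WT HFD livers, 8.07, 7.99 and 7.83 in KO chow livers and 8.24, 7.91 and 7.89 in WT chow livers. The HFD arrays of the genotypes were apart, while the chow arrays overlapped with both. Sdhaf4 fell by 0.41 ± 0.12 on the log2 scale (adjusted p = 0.0426). It passed without KO HFD 3, WT HFD 1, KO chow 3, WT chow 1 or WT chow 3, while leaving out KO HFD 1 or 2, WT HFD 2 or 3, KO chow 1 or 2, or WT chow 2 ended the call, with adjusted p reaching 0.136. It passed under 5 of 8 other settings, with adjusted p up to 0.0875.

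Among the assembly factors that did not pass, Sdhaf2, which attaches FAD to Sdha, had 8.42, 8.53 and 8.65 in KO HFD livers and 8.80, 8.81 and 8.81 in WT HFD livers. The arrays were apart, and the difference was -0.27 ± 0.09 (adjusted p = 0.071). Ndufaf1 differed by -0.31 ± 0.10 (adjusted p = 0.0692), Ndufaf5, which hydroxylates Ndufs7, by -0.31 ± 0.11 (adjusted p = 0.0996) and Ndufaf3 by -0.27 ± 0.11 (adjusted p = 0.142). Sdhaf1, Ndufaf2, Sdhaf3, Ndufaf8 and Ndufaf4 lay between -0.10 and 0.21, with adjusted p between 0.352 and 0.927.

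**Figure D2:**
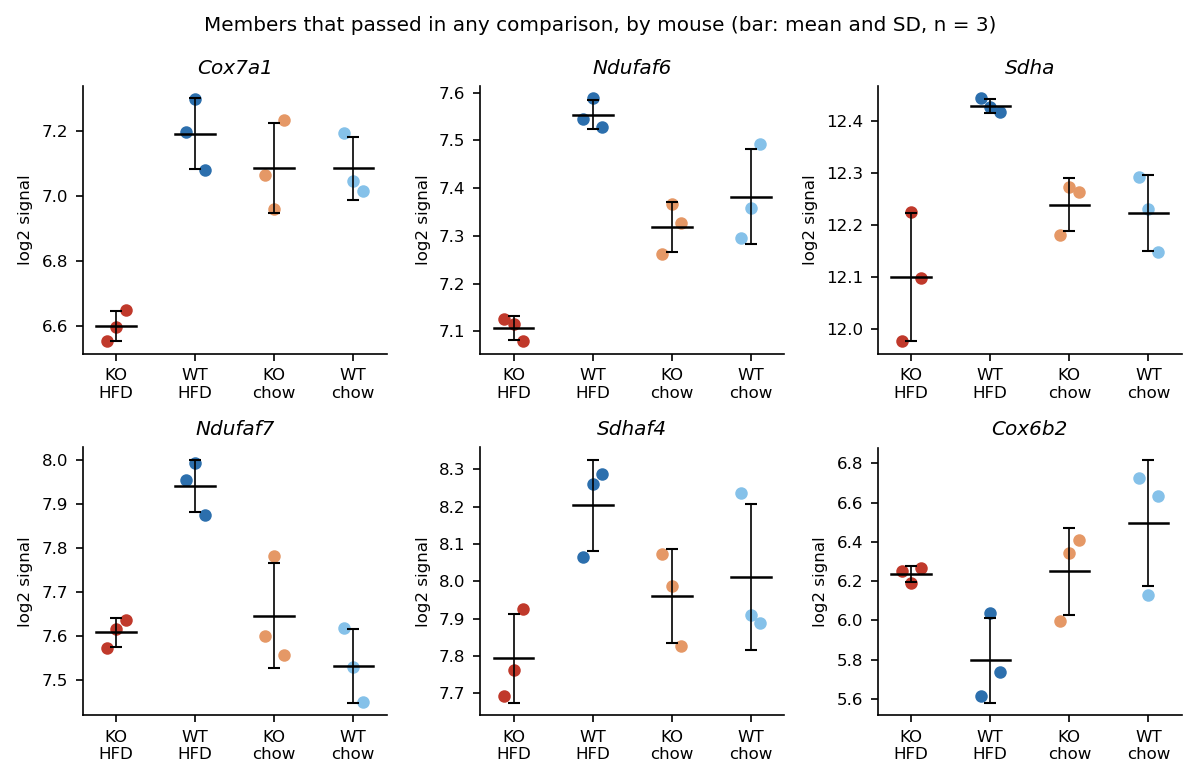
Log2 signal of the 6 members that passed in a comparison of 2 groups, by group, with 1 point per mouse and a line and bar for the mean and SD (n = 3). KO HFD livers were the lowest group for Cox7a1 and Ndufaf6, with 6.56 to 6.65 and 7.08 to 7.13, and the vertical axes do not start at 0.

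The position of each array relative to the mean of the 12 arrays was summarised by the median over a complex. For complex II this was -0.14, -0.02 and -0.13 in KO HFD livers and 0.05, 0.06 and 0.12 in WT HFD livers. For the assembly factors it was -0.21, 0.01 and -0.03 in KO HFD livers and 0.10, 0.14 and 0.19 in WT HFD livers. In both, the HFD arrays of the genotypes were apart, whereas those of complexes I, III, IV and V overlapped. KO HFD 1 was the lowest of the 12 arrays for complexes I, II and III and for the assembly factors.

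**Figure D3:**
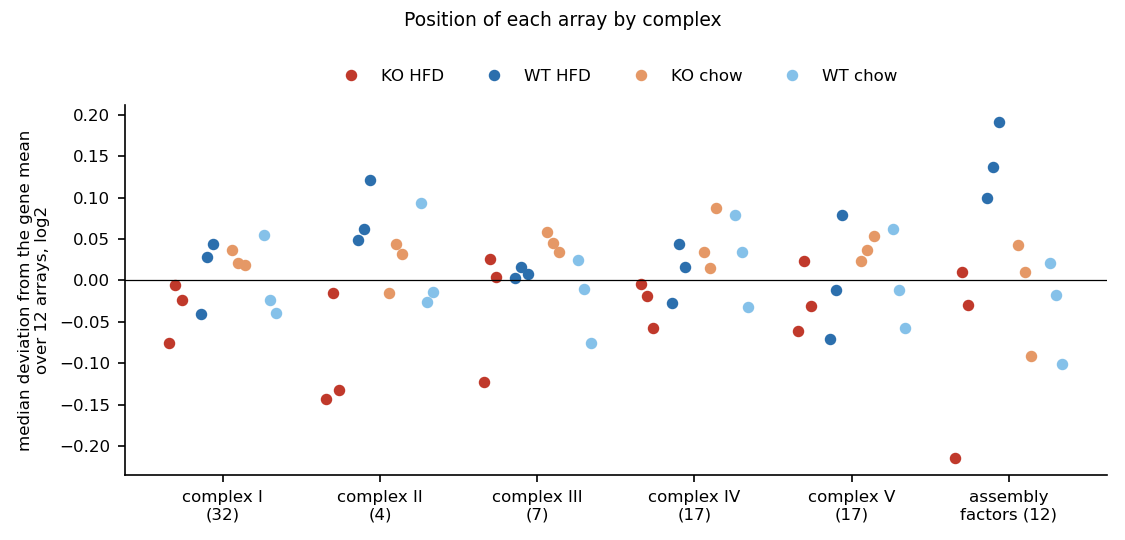
Each point is 1 array, and its height is the median over the members of a complex of the deviation from the gene's mean over 12 arrays, on the log2 scale. The WT HFD arrays lie at 0.10, 0.14 and 0.19 for the assembly factors and the KO HFD arrays at -0.21, 0.01 and -0.03, while for complex V the groups overlap.

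On chow 0 of 93 members passed between KO and WT livers, where 0.00902% of all genes did (2 genes). At an unadjusted p under 0.05, limma counted 6 members, against 7.02% of all genes, and under every other setting run 0 members passed. The median difference was 0.03, with 55 members above 0 and 38 below, and 14 of the 17 subunits of complex V were above 0. All KO arrays were above all WT arrays for 12 members, against 5.95% of all genes, and below them for 5, against 7.29%. For 72 of the 77 subunits the 95% interval stayed within 0.5 of 0. Among the members with the smallest p were Ndufaf4 with 0.35 ± 0.12 (adjusted p = 0.591), Ndufaf1 with -0.28 ± 0.10 (adjusted p = 0.596), Sdhb, given above, Atp5g1 with 0.36 ± 0.14 (adjusted p = 0.621) and Cox4i2 with 0.22 ± 0.09 (adjusted p = 0.659). Ndufaf1 had 9.47, 9.43 and 9.49 in KO chow livers and 9.85, 9.75 and 9.62 in WT chow livers, so that its KO arrays were below its WT arrays on either diet. Cox7a1 differed by 0.0006 ± 0.10 (adjusted p = 0.999) on chow.

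HFD against chow within a genotype was compared next. These comparisons use the same HFD arrays as the genotype comparison, so their values are not independent of it. In KO livers 0 of 93 members passed, where 0.243% of all genes did, and 8 had an unadjusted p under 0.05 in limma, against 8.51% of all genes. With a trend and a robust prior, or with only genes above the median signal, 1 member fell, Cox7a1. The median was -0.07, with 20 members above 0 and 73 below, and all HFD arrays were below all chow arrays for 20 members, against 6.79% of all genes, and above them for 2, against 6.99%. Over all genes the median was 0.0037. By complex the medians were -0.06, -0.13, -0.07, -0.11 and -0.05 from complex I to complex V, and -0.05 for the assembly factors.

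Cox7a1 had the smallest p of the members in this comparison, with a difference of -0.48 ± 0.10 between HFD and chow in KO livers (adjusted p = 0.0693, and 0.0242 to 0.249 under 8 other settings). Cox7c, a small subunit of complex IV, had 7.47, 6.78 and 7.43 in KO HFD livers and 7.59, 7.90 and 7.65 in KO chow livers. Its arrays were apart, with KO HFD 2 far below the others, and the difference was -0.49 ± 0.20 (adjusted p = 0.532). Ndufa7 differed by -0.25 ± 0.09 (adjusted p = 0.435), Ndufaf6 by -0.21 ± 0.08 (adjusted p = 0.468) and Sdhb by -0.23 ± 0.09 (adjusted p = 0.525).

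In WT livers HFD against chow gave 2 calls among the 93 members, 1 rise and 1 fall, where 6.96% of all genes passed, 4.02% higher and 2.94% lower. Over all genes 891 rose and 652 fell, or 1089 and 457 when arrays were centred on the median. The members' median was 0.0019, with 47 above 0 and 46 below (59 and 34 with median centring), and HFD arrays were all above chow arrays for 13 members, against 14.2% of all genes, and all below for 5, against 12.2%. Ndufaf7 rose by 0.41 ± 0.09 (limma adjusted p = 0.0138), a call lost without WT HFD 2 or WT chow 3. With WT chow 3 left out its adjusted p was 0.0621.

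Cox6b2 fell by 0.70 ± 0.16 on the log2 scale in WT livers on HFD (adjusted p = 0.0232). It had 5.61, 6.04 and 5.74 in WT HFD livers and 6.73, 6.13 and 6.63 in WT chow livers. The arrays were apart, though the values of WT HFD 2 and WT chow 2 lay close together. The call was lost without WT HFD 1, WT HFD 3, WT chow 1 or WT chow 3, with adjusted p reaching 0.0915, and it passed under 6 of 8 other settings, with adjusted p up to 0.0727. In KO livers Cox6b2 differed by -0.01 ± 0.16 between diets, with 6.25, 6.19 and 6.26 on HFD and 6.00, 6.34 and 6.41 on chow.

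The medians of complexes IV and V were -0.03 and -0.01 in WT livers on HFD against chow, and turned to 0.01 and 0.03 with median centring. Among the assembly factors 10 of 12 were above 0 in WT livers on HFD against chow, with a median of 0.14. Ndufaf3 differed by 0.31 ± 0.11 (adjusted p = 0.114) and Ndufaf6 by 0.17 ± 0.08 (adjusted p = 0.233). In complex II, Sdha and Sdhb differed by 0.21 ± 0.08 (adjusted p = 0.183) and 0.23 ± 0.09 (adjusted p = 0.185), while Sdhd differed by -0.28 ± 0.10 (adjusted p = 0.121). Ndufs7 differed by -0.21 ± 0.07 (adjusted p = 0.12) and Cox4i2 by 0.27 ± 0.09 (adjusted p = 0.1). Atp5j2, a subunit of the membrane part of complex V, had 5.64, 5.55 and 6.02 in WT HFD livers and 5.29, 5.34 and 4.96 in WT chow livers. The arrays were apart, with a difference of 0.54 ± 0.20 (adjusted p = 0.135).

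**Figure D4:**
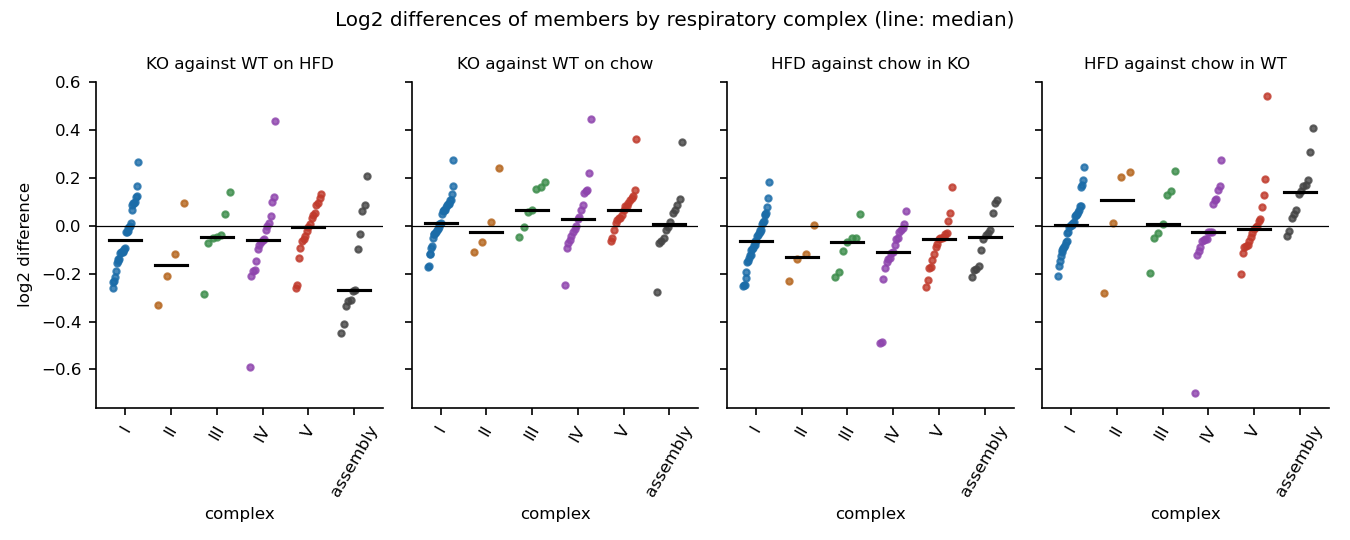
Each point is a subunit or assembly factor, its height is the log2 difference between the groups named above the panel, and the line is the median of the complex. The assembly factors have medians of -0.27 for KO against WT on HFD and 0.14 for HFD against chow in WT, and the median of complex V is -0.0022 for KO against WT on HFD.

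Whether the genotype difference depended on diet was tested by the interaction, and 1 of 93 members passed, Cox7a1, against 3.53% of all genes, with 13 members at an unadjusted p under 0.05, against 17.3% of all genes. Over all genes 318 were positive and 465 negative, or 221 and 623 with median centring. The genotype difference of Cox7a1 was lower on HFD than on chow, with an interaction of -0.59 ± 0.13 (limma adjusted p = 0.0337). The call held without KO HFD 3, WT HFD 3, KO chow 2 or WT chow 1. Leaving out KO HFD 1 or 2, WT HFD 1 or 2, KO chow 1 or 3, or WT chow 2 or 3 ended it, with adjusted p reaching 0.088, and it held under 5 of 7 other settings. The interactions of Ndufaf7, Ndufaf6, Cox6b2 and Sdha were -0.45 ± 0.12 (adjusted p = 0.0681), -0.38 ± 0.11 (adjusted p = 0.0827), 0.69 ± 0.23 (adjusted p = 0.137) and -0.34 ± 0.12 (adjusted p = 0.143). The members' median was -0.09, with 25 above 0 and 68 below (-0.15, with 16 above and 77 below, with median centring).

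Genes outside the rule that serve the same machinery were compared in KO against WT livers on HFD. In that comparison 3.89% of all genes rose and 6.62% fell. Of 10 subunits encoded by mitochondrial DNA, 0 passed (limma, 1 at an unadjusted p under 0.05), with a median of -0.0089. Apart from ND6, their signals ran from 13.30 to 14.13, near the top of the scale. Of 8 other complex I assembly factors 2 fell. Acad9, a relative of the acyl-CoA dehydrogenases, had 7.94, 8.12 and 8.22 in KO HFD livers and 8.69, 8.63 and 8.73 in WT HFD livers, a difference of -0.59 ± 0.11 (adjusted p = 0.00412). Nubpl, which delivers iron-sulfur clusters to complex I, had 8.01, 7.81 and 7.95 in KO HFD livers and 8.41, 8.63 and 8.42 in WT HFD livers, a difference of -0.56 ± 0.12 (adjusted p = 0.00911). For both genes the KO and WT arrays on HFD were apart, and both passed when any of the 12 arrays was left out.

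Acad9 and Nubpl also rose in WT livers on HFD against chow, by 0.43 ± 0.11 (adjusted p = 0.0307) and 0.69 ± 0.12 (adjusted p = 0.00438). The call of Acad9 was lost without any WT HFD array or WT chow 3, with adjusted p reaching 0.122, and it passed under 5 of 8 other settings (up to 0.0695). Of 26 assembly factors of complexes III to V, 2 fell in KO against WT livers on HFD, where 6.62% of all genes fell. Uqcc2 of complex III fell by 0.45 ± 0.09 on the log2 scale (limma adjusted p = 0.00683). Sco1, which delivers copper to complex IV, fell by 0.41 ± 0.10 (adjusted p = 0.0159, 0.0681 without WT HFD 1 and 0.0656 with only the HFD arrays fitted). Of 16 genes of mobile carriers and coenzyme Q synthesis 1 rose and 2 fell, where 3.89% of all genes rose and 6.62% fell. Etfdh, which feeds electrons from fatty acid oxidation into ubiquinone, rose by 0.34 ± 0.07 (adjusted p = 0.00911), Pdss2, which makes the tail of coenzyme Q, fell by 0.42 ± 0.10 on the log2 scale (adjusted p = 0.0139), and Coq10a fell by 0.46 ± 0.11 (adjusted p = 0.02, and up to 0.0829 without KO HFD 2, KO HFD 3 or WT HFD 3).

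Of 13 tricarboxylic acid cycle genes outside complex II, 4 rose and 2 fell in KO against WT livers on HFD. Over all genes 3.89% rose and 6.62% fell. Fh1, the fumarase that follows complex II in the cycle, rose by 0.63 ± 0.12 (adjusted p = 0.00493), and Ogdh, of the oxoglutarate dehydrogenase complex, by 0.46 ± 0.08 (adjusted p = 0.00404). Dlst, of the same complex, rose by 0.36 ± 0.09 (adjusted p = 0.029), a call lost without KO HFD 2, KO HFD 3 or any WT HFD array, with adjusted p reaching 0.106, and it passed under 5 of 8 other settings (up to 0.0923). Idh3a rose by 0.55 ± 0.15 (adjusted p = 0.0401), and of the 12 fits with an array left out it passed in those without KO HFD 1, WT chow 1 or WT chow 3, with adjusted p reaching 0.137 in the rest. Idh3a passed under 4 of 8 other settings (up to 0.0853). Suclg2, of the step before complex II, fell by 0.45 ± 0.08 on the log2 scale (adjusted p = 0.00273), and Idh2, the mitochondrial NADP-dependent isocitrate dehydrogenase, by 0.51 ± 0.11 (adjusted p = 0.0108).

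Of 16 regulators of mitochondrial biogenesis 1 rose in KO HFD livers, against 3.89% of all genes. The riser was Ppargc1a, a coactivator that induces respiratory genes and is also active in hepatic gluconeogenesis. It had 9.72, 9.70 and 9.81 in KO HFD livers, 8.60, 8.59 and 8.47 in WT HFD livers, 10.13, 9.37 and 9.24 in KO chow livers and 9.15, 9.40 and 9.39 in WT chow livers. The WT HFD livers were below all other arrays, and the KO HFD livers lay within the range of KO chow livers. Ppargc1a rose by 1.19 ± 0.18 in KO against WT livers on HFD (adjusted p = 0.0015, and at most 0.00877 with an array left out). It fell by 0.76 ± 0.18 on the log2 scale in WT livers on HFD against chow (adjusted p = 0.0261), a call lost without any WT HFD array, WT chow 2 or WT chow 3, with adjusted p reaching 0.0886, and with each probe set tested separately it was 0.0648. The interaction was 0.92 ± 0.26 (adjusted p = 0.0759).

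The transcription factor Nrf1 had 7.39, 7.55 and 7.72 in KO HFD livers and 7.33, 7.34 and 7.26 in WT HFD livers. Its arrays were apart, with a difference of 0.24 ± 0.09 (adjusted p = 0.121). Tfam, which maintains mitochondrial DNA, differed by 0.10 ± 0.11 (adjusted p = 0.63) and Cycs, cytochrome c, by 0.26 ± 0.11 (adjusted p = 0.183). In the same comparison 0 of the 77 subunits passed as higher in KO, against 3.89% of all genes. At an unadjusted p under 0.05 in either direction limma counted 9 subunits, against 23.8% of all genes. An effect of these regulators on the subunits was not tested.

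**Figure D5:**
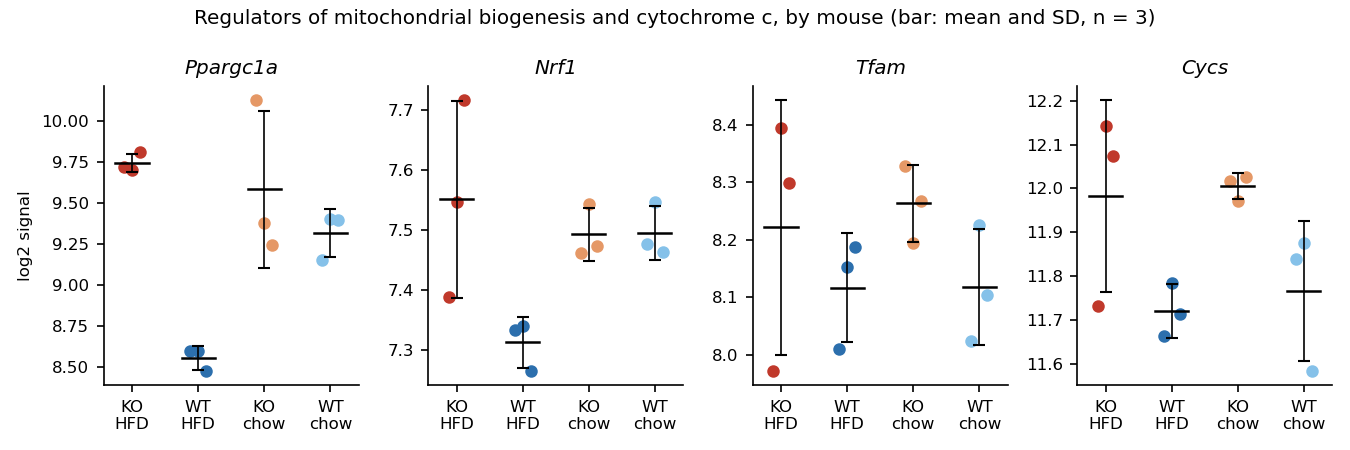
Log2 signal of Ppargc1a, Nrf1, Tfam and Cycs by group, with 1 point per mouse and a line and bar for the mean and SD (n = 3), on axes that do not start at 0. The Ppargc1a values of 8.47 to 8.60 in WT HFD livers lie below those of all other groups.

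The choice of probe set bears on some members. For 10 members with 2 probe sets, the probe sets had the same sign for 8 in KO against WT on HFD, 6 on chow, 5 in HFD against chow in KO and 8 in WT. Atp5h, a stalk subunit of complex V, gave -0.05 ± 0.10 with the probe set used and 0.44 ± 0.13 with the other (adjusted p = 0.0888 over all probe sets) in KO against WT on HFD. In WT livers on HFD against chow that other probe set of Atp5h fell by 0.73 ± 0.13 on the log2 scale (adjusted p = 0.0155 over all probe sets), while the probe set used gave -0.08 ± 0.10. It was the only probe set of the 10 members to pass in any of the 5 comparisons. Atp5e, in the rotor stalk of complex V, gave -0.25 ± 0.13 and -0.40 ± 0.10 (adjusted p = 0.0543) in KO against WT on HFD. A further 10 probe sets carried a member's prefix among several symbols and were left out, Cox6c, Ndufb2, Ndufb4, Ndufs6 and Uqcr10 among them, and 0 of these 10 passed in any comparison (limma over all probe sets). The probe sets shared by Ndufs6 and its copy Ndufs6b differed by -0.32 ± 0.14 (adjusted p = 0.253) and -0.27 ± 0.14 (adjusted p = 0.334) on HFD. Among the 93 members, 10 had a mean signal below that of the median gene (6.17), the pseudogenes and several tissue isoforms among them. They also include Ndufs5 (4.99), Atp5j2 (5.43) and Ndufaf5 (5.17), so the differences given for Atp5j2 and Ndufaf5 rest on low signals. Those of Cox6b2 do too, since its mean (6.19) lay only just above that of the median gene. The probe set used for Ndufs5 had means of 5.01 in KO HFD and 4.89 in WT HFD livers. A probe set shared by Ndufs5 and its pseudogene differed by -0.28 ± 0.12 (limma adjusted p = 0.26 over all probe sets).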

How the data were processed

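Liver RNA of 12 mice was measured on 12 arrays, and the values analysed were the deposited log2 signals of 41345 probe sets. Per the submitters' processing notes the authors used oligo; no version, background correction or normalization is stated there. No value was missing. Probe sets with 1 symbol (23521) gave 22180 genes, each by its highest-mean probe set; 1814 with several symbols and 16010 with none were not used in the gene table.

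Group means of all 12 arrays were fitted with limma 3.58.1 (R 4.3.3, lmFit and eBayes), and p-values were adjusted by Benjamini-Hochberg over all 22180 genes, with 0.05 as the threshold. The labels call the mice biological replicates. Members, lists and tests were chosen with earlier results of these data known. Named genes were members that passed, up to 12 per direction by p, or the 5 with the smallest p where fewer than 5 passed, with isoform pairs, Sdh subunits, the highest-signal member of each complex, up to 4 genes per list by p, and Ppargc1a, Nrf1, Tfam, Cycs and Ahnak. Tested on simulated data for KO against WT on HFD over 22180 genes, the fit recovered 43.3% of genes changed by 0.5, 83.6% by 1 and 98.5% by 2 on the log2 scale, with 4 false calls. The simulation changed 67, 67 and 66 genes by these amounts, with spreads of all genes, while 2331 genes passed in the real comparison. Its rates therefore do not give the power or error rate of the member calls. Alternatives were a replicate block, a trend and robust prior, quantile normalization, median centring, every probe set, a gene's mean over its probe sets, genes above the median signal, only the arrays compared, and leaving out each array. Same-numbered mice did not deviate together: 18 pairs had correlations from -0.06 to 0.08.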

Additional observations from a re-analysis of the deposited data

Results flagged for a closer look

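By limma's interaction test the genotype difference depended on diet for 1 of 93 members and 3 genes of the mitochondrial lists described above. Over all genes 3.53% passed this test. Among mitochondrial ribosomal protein genes, a list not described above, 1 of 71 passed. The interaction of Cox7a1 was -0.5917 (adjusted p = 0.0337). That of Acad9 was -0.6136 (adjusted p = 0.0468), that of Nubpl -0.8117 (adjusted p = 0.0196) and that of Idh2 -0.7493 (adjusted p = 0.0216). Each is the KO minus WT difference on HFD minus that on chow, on the log2 scale. With arrays left out in turn, Cox7a1 passed in 4 of 12 fits, Acad9 in 2, only without KO HFD 3 or KO chow 3, and Nubpl in 9, all but those without KO HFD 2, WT HFD 2 or KO chow 2. Idh2 passed in 7, and was lost without WT HFD 1 or 3, KO chow 2 or 3, or WT chow 3. Of 7 other settings, Cox7a1 and Acad9 passed in 5 each, with adjusted p up to 0.0778 and 0.103, and Nubpl and Idh2 in 6 each, with adjusted p up to 0.0525 and 0.0559. Groups of 3 mice were too small to look for single outlying arrays.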

How the results depend on the processing

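Of the 93 members, 5 passed in KO against WT on HFD (862 and 1469). Brackets here give the genes that rose and fell, or were positive and negative for the interaction, of 22180 unless stated. With a trend and robust prior 10 members passed (1090 and 1685), and with median centring 9 (545 and 1937). Genes above the median signal gave 9 of 83 members (1168 and 1747 of 11090). Every probe set tested gave 2 (532 and 1020), and only the arrays compared gave 2 (593 and 1077). For HFD against chow in KO the member count was 0 (19 and 35). It was 1 with a trend and robust prior (43 and 81). Among genes above the median signal it was 1 of 83 (37 and 87 of 11090). For HFD against chow in WT the member count was 2 (891 and 652), then 4 with a trend and robust prior (1167 and 902). Among genes above the median signal it was 5 of 83 (1211 and 1002 of 11090). It was 1 with every probe set (555 and 362) and 1 with only the arrays compared (630 and 430). For the interaction the member count was 1 (318 and 465), then 4 with a trend and robust prior (491 and 710). It was 2 with median centring (221 and 623). Among genes above the median signal it was 4 of 83 (584 and 810 of 11090), and with every probe set 0 (146 and 225). With the replicate block the member count was 4 for KO against WT on HFD (733 and 1340). It was 2 for HFD against chow in WT (755 and 535). It was 0 for KO against WT on chow (0 and 0), HFD against chow in KO (14 and 26) and the interaction (247 and 365). The replicate numbers do not pair the mice, since 0 of 18 same-number correlations exceeded 0.1 and 1 of 12 arrays correlated best with its own number. Leaving out each array gave 2 to 5 member calls in KO against WT on HFD and 0 to 3 for HFD against chow in WT. It gave 0 to 1 for the interaction and 0 in the other comparisons. All-gene counts changed too. Without WT HFD 2, for example, 2 members passed in KO against WT on HFD (523 and 1081). KO against WT on chow had 0 member calls in every setting. The test of every probe set was chosen after seeing the data. Causes of these changes were not tested. Of the results for single genes 0 reversed, but many settings could not show a reversal. The replicate block, the trend and robust prior, every probe set, genes above the median signal and only the arrays compared kept each gene's values. The sign of a difference was therefore fixed under them. Leaving out an array of a group not compared also fixed it. Leaving out a compared array could change the sign, and the interaction compared all 12 arrays. The second probe sets of some members, described above, did differ in sign from the probe set used.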
